A study of Mus musculus with 6 samples.

Results

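The 6 genes described here form the type 2 helper (Th2) axis of T cells: the cytokine genes Il4, Il5 and Il13, the transcription factor genes Gata3 and Maf, and Il1rl1, which encodes ST2, the receptor of the alarmin IL-33. They were taken by symbol from a table of 35275 Ensembl gene identifiers, and all 6 were found. RNA was sequenced from regulatory T (Treg) cells of male mice aged 6 to 8 weeks, sorted for yellow fluorescent protein (YFP) after CD4+ column enrichment. Mice of the 3 control libraries, which the labels call wild type, were Foxp3YFPcre mice, and those of the 3 deletion libraries were Rcor1fl/flFoxp3YFPcre mice, so both groups carry a Cre recombinase and YFP driven by Foxp3, and only the second also carries floxed Rcor1. The replicates are labelled as independent biological samples, with any pooling of animals not given in the sources used here.

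Values are in FPKM, the number of fragments divided by the length of a gene in kilobases and by the size of the library. Library totals recovered from them were 18538581 to 22349455 fragments, so at these depths 1 gene in 1 library can rest on a few fragments, and intervals on fragments below are exact 95% Poisson intervals that cover counting error only. Foxp3 was at 95.6 ± 9.4 and 103 ± 3.1 FPKM (adjusted p = 0.348), and the 11 Treg identity markers summed to 2313 to 2591 FPKM in control and 2382 to 2435 FPKM in deletion libraries. Of these Ikzf2, the factor Helios, rose (47.5 to 62.5 FPKM, adjusted p = 0.0463) and Cd3g fell (528 to 465 FPKM, adjusted p = 0.0422), and the most abundant, Trac, was at 698 and 731 FPKM (adjusted p = 0.521). The call of Ikzf2 was kept only when control library 2 was the one omitted, and that of Cd3g was lost whichever library was left out. Rcor1 itself was at 15.8 ± 0.56 FPKM (SD, n = 3) in control and 13.2 ± 0.85 FPKM (n = 3, as for every ± value below) in deletion libraries, without overlap, a difference of -16.3% that did not pass the test (limma adjusted p = 0.0562). It passed in 4 of 15 alternatives, median-ratio scaling (adjusted p = 0.0266) and voom (adjusted p = 0.0166) among them, and in 0 of 6 with a library left out, with adjusted p-values of 0.0166 to 0.154 over the 15. The labels do not say which exons are floxed, and a value per gene can include RNA from outside the deleted part. Of 11575 tested genes 8.95% rose and 3.08% fell in deletion libraries at an adjusted p under 0.05, and the median log2 fold change of all tested genes was 0.08. With median-ratio scaling 4.56% rose and 5.94% fell, and with voom 6.07% and 6.29%, so the balance of rises and falls depends on the scaling.

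Rcor1 encodes a scaffold of the CoREST complex, which joins histone deacetylases and a histone demethylase to repressors such as GFI1. Th2 cells are CD4+ helper cells of immunity to parasites and of allergy. GATA-3, the lineage factor of Th2 cells, opens a locus that holds Il4, Il13 and Il5 around the DNA repair gene Rad50, while c-Maf acts mainly on Il4, and IL-4 acts back through its receptor and STAT6. Treg cells use parts of the same axis: GATA-3 and ST2 mark Treg cells of barrier tissues, which respond to IL-33, and Treg cells that fail to restrain this axis can make Th2 cytokines.

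In GRCm38 with the GENCODE M21 annotation, Il4 lies at chr11:53602982-53618669, Il13 at chr11:53631324-53634702 (both minus strand) and Il5 at chr11:53720794-53725106 (plus strand). Gata3 lies at chr2:9857078-9890034, Maf at chr8:115682942-115707794 (both minus strand) and Il1rl1 at chr1:40429570-40465415 (plus strand). The antisense genes Gm12214 in Il5 and Gm15655 in Maf were at 0 FPKM in all 6 libraries.

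The promoter sequences are shown to mark short words named after the GATA and MAF factors, and binding of these factors was not measured. RefSeq (GRCm38.p6) gave windows for 5 of the 6 genes, with 2 starts each for Il4 and Il1rl1. The 250 bases before a start are printed 5′ to 3′ in the direction of the gene, with GATA words (GATA after A or T and before A or G, on either strand) and the MAF word TGCTGA (on either strand) in capitals. The windows are those of Il4 at its upstream start (chr11:53618666-53618915, minus strand), Il13 (chr11:53634703-53634952, minus strand), Il5 (chr11:53720544-53720793, plus strand) and Il1rl1 at its upstream start (chr1:40429320-40429569, plus strand) and its downstream start (chr1:40439379-40439628, plus strand).
Il4: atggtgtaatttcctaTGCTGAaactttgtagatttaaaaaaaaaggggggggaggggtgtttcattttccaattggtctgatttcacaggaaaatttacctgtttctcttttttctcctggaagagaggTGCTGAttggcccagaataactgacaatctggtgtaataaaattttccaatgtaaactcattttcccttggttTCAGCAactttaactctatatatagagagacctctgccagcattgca
Il13: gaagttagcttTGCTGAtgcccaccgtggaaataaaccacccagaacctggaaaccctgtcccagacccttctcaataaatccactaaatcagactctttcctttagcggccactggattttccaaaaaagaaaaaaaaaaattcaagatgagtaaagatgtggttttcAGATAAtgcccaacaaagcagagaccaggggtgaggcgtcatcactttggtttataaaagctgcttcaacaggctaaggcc
Il5: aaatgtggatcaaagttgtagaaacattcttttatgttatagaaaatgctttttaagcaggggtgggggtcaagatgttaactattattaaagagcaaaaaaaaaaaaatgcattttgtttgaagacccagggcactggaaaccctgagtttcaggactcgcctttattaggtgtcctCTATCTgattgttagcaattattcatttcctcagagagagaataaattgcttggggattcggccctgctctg
Il1rl1 upstream: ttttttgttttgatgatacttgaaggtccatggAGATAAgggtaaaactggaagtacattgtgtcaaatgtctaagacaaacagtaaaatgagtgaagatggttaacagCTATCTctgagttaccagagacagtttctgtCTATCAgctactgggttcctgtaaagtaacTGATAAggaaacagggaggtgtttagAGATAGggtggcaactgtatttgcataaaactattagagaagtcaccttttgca
Il1rl1 downstream: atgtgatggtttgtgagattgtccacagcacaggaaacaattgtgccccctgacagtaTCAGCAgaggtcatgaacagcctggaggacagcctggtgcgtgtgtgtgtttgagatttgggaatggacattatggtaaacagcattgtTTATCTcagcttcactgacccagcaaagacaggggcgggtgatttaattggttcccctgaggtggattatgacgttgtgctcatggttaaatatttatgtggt

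The upstream Il4 window held 3 MAF words and 0 GATA words. At least 3 MAF words were found in 48 of 32851 promoter windows of the same length (0.146%), and at least 1 in 16.1%. The upstream Il1rl1 window held 5 GATA words, which begin at bases -217, -141, -110, -80 and -54 from the start. At least 5 were found in 14 of 32851 windows (0.043%), and at least 1 in 26.5%. The cut-offs of 3 and 5 equal the counts in these windows, the highest for each word among the windows of the axis genes, so these shares are not tests. Il13 and Il5 each held 1 GATA word, beginning at bases -81 and -72, and Il13 also held 1 MAF word. The downstream Il1rl1 window held 1 of each, the second Il4 window 1 GATA word, and the Gata3 window 1 MAF word. The STAT6 pattern, TTC and GAA with 4 bases between them, present in 5.85% of windows, was found once, in the upstream Il4 window, where it overlaps the word AAATCA, which holds the AATC core of GFI1 sites. That word, in 12.4% of windows, was also found in the Il13 window and the downstream Il1rl1 window. GATA words and MAF words did not overlap in these windows. A match describes the letters only, and binding was not measured.

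Of the 6 genes, Il4 and Il1rl1 rose in deletion libraries and 0 fell, while Maf, Gata3 and Il13 did not pass the test and Il5 was too low to be tested. Among the 5 tested genes this is 2 that rose, against 8.95% of all tested genes (12% passed in either direction). With median-ratio scaling it is also 2, against 4.56%. In 3 of 5 (Il4, Il1rl1 and Maf) the groups did not overlap, against 39.1% of all tested genes. With 5 genes these shares describe the axis and say nothing particular to it. An exact two-sided permutation test over 3 against 3 libraries cannot give a p under 0.1, and it gave 0.1 for Il4, Il1rl1 and Maf, 0.2 for Gata3, 0.3 for Il5 and 0.9 for Il13.

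**Figure D1:**
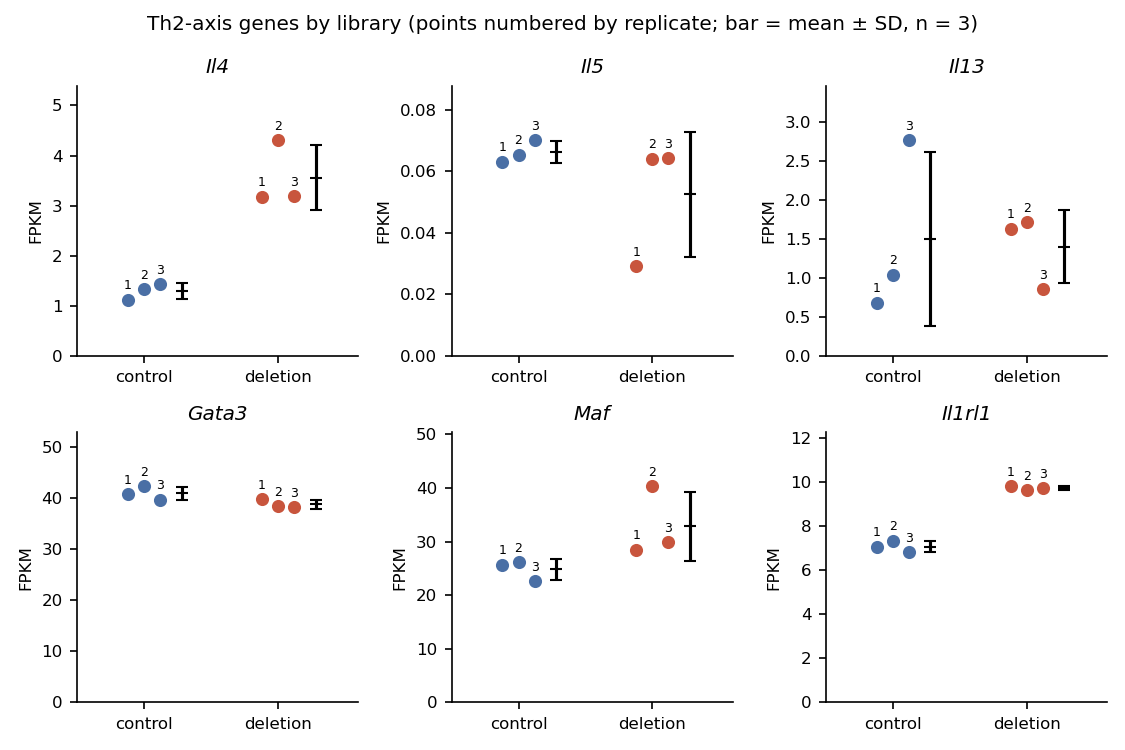
FPKM (vertical axes, each from 0) of the 6 Th2-axis genes in each library, with points numbered by replicate and bars for the mean ± SD over 3 libraries of control (blue) and deletion (red). Il4 and Il1rl1 lie higher in all 3 deletion libraries, with means of 3.56 against 1.29 FPKM and of 9.73 against 7.08 FPKM.

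Il4, the signature cytokine of Th2 cells, was at 1.12, 1.33 and 1.43 FPKM in control libraries 1, 2 and 3 and at 3.18, 4.31 and 3.18 FPKM in deletion libraries 1, 2 and 3. The lowest deletion library was above the highest control library, and deletion library 2 was the highest of all. These levels rest on few fragments, 14, 16 and 16 in control and 43, 53 and 39 in deletion libraries. Their sums of 46 (33.7 to 61.4) and 135 (113 to 160) differed by more than counting error. The mean went from 1.29 ± 0.16 to 3.56 ± 0.65 FPKM, a ratio of 2.75. On the log2(FPKM + 1) scale the fold change was 0.98 (SE 0.12, limma adjusted p = 0.00629), in rank 242 by size among 11575 tested genes. In these bulk samples a larger share of cells with Il4 RNA and more Il4 RNA per cell cannot be told apart.

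Il13, the neighbour of Il4 and a cytokine of mucus production and tissue responses, did not pass the test. It was at 0.684, 1.04 and 2.78 FPKM in control and at 1.63, 1.72 and 0.861 FPKM in deletion libraries, so the groups overlapped fully. Control library 3 stood apart with 62 fragments (47.5 to 79.5) against 17 (9.90 to 27.2) and 25 (16.2 to 36.9) in the other control libraries, a spread beyond counting error. Means were 1.501 ± 1.1 and 1.40 ± 0.47 FPKM (log2 fold change 0.01, SE 0.31, adjusted p = 0.985), and without control library 3 the fold change was 0.35 (adjusted p = 0.326). Il4 and Il13, whose genes start 16.0 kb apart, stood at like levels per length in control libraries. The difference of their log2(FPKM + 1) values was 0.33, 0.19 and -0.64 in control and 0.67, 0.97 and 1.17 in deletion libraries. This difference was higher in all 3 deletion libraries (exact permutation p = 0.1, the smallest possible). Il4 with Il13 was 1 of 4 pairs chosen after the values were seen, so this p-value is descriptive only.

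Il5, the growth factor of eosinophils, was almost silent. It was at 0.0631, 0.0654 and 0.0702 FPKM in control and 0.0291, 0.0640 and 0.0643 FPKM in deletion libraries. That is 2 fragments in each library except deletion library 1, which had 1. The sums of 6 (2.20 to 13.1) and 5 (1.62 to 11.7) fragments leave a difference undetectable at this depth. Of the other cytokine genes that Th2 cells can make, Il3, Il9, Il24, Il31 and Csf2 were likewise below 0.2 FPKM in both group means.

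Gata3, the lineage factor, had the highest level of the 6 genes. It was at 40.8, 42.3 and 39.8 FPKM in control and 39.9, 38.4 and 38.2 FPKM in deletion libraries. The groups overlapped by 1 library, and the means of 41.0 ± 1.3 and 38.9 ± 0.90 FPKM did not pass the test (log2 fold change -0.07, SE 0.05, adjusted p = 0.343). Gata3 overlaps 3 annotated genes, 2 of them on the opposite strand, but Gm13256, 4930412O13Rik and 9230102O04Rik each stood at no more than 1.04 FPKM in any library. Set against Gata3 within each library, Il4, Il1rl1 and Maf were all higher in every deletion library. The differences were 1.06, 0.48 and 0.45 on the log2(FPKM + 1) scale (exact permutation p = 0.1 each). These pairs too were chosen after the values were seen.

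Maf, the c-Maf factor that activates Il4, was at 25.7, 26.1 and 22.7 FPKM in control and at 28.5, 40.3 and 29.9 FPKM in deletion libraries. The groups did not overlap, but deletion library 2 carried much of the difference. The means of 24.8 ± 1.9 and 32.9 ± 6.4 FPKM gave a log2 fold change of 0.38 (SE 0.13) that did not pass the test (adjusted p = 0.101, unadjusted p = 0.0241). Without deletion library 2 it was 0.23 (adjusted p = 0.158). Deletion library 2 also had the highest summed level of macrophage and dendritic cell markers, cells of which macrophages express Maf, and the part of these cells in the Maf level was not tested.

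Il1rl1 encodes both the membrane receptor ST2 and a soluble decoy form, which a value per gene cannot separate. It was at 7.08, 7.35 and 6.83 FPKM in control and at 9.81, 9.63 and 9.75 FPKM in deletion libraries. Libraries within a group lay close together and the groups were apart, from 671 to 775 fragments in control and from 1038 to 1163 in deletion libraries. The mean rose from 7.08 ± 0.26 to 9.73 ± 0.091 FPKM, or by 37.4% (log2 fold change 0.41, SE 0.06, adjusted p = 0.01002). Its call was narrowly lost without deletion library 3 (log2 fold change 0.41, limma adjusted p = 0.0542).

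In both groups the order of levels per length was Gata3, Maf, Il1rl1, then the cytokines, with Il5 last. Neighbours in this order were apart in every control library and, except for deletion library 2, where Maf (40.3 FPKM) passed Gata3 (38.4 FPKM), in every deletion library, down to Il1rl1. Il4 and Il13 overlapped in control libraries, at 1.12 to 1.43 and 0.684 to 2.78 FPKM. In deletion libraries Il4 (3.18 to 4.31 FPKM) was above Il13 (0.861 to 1.72 FPKM).

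**Figure D2:**
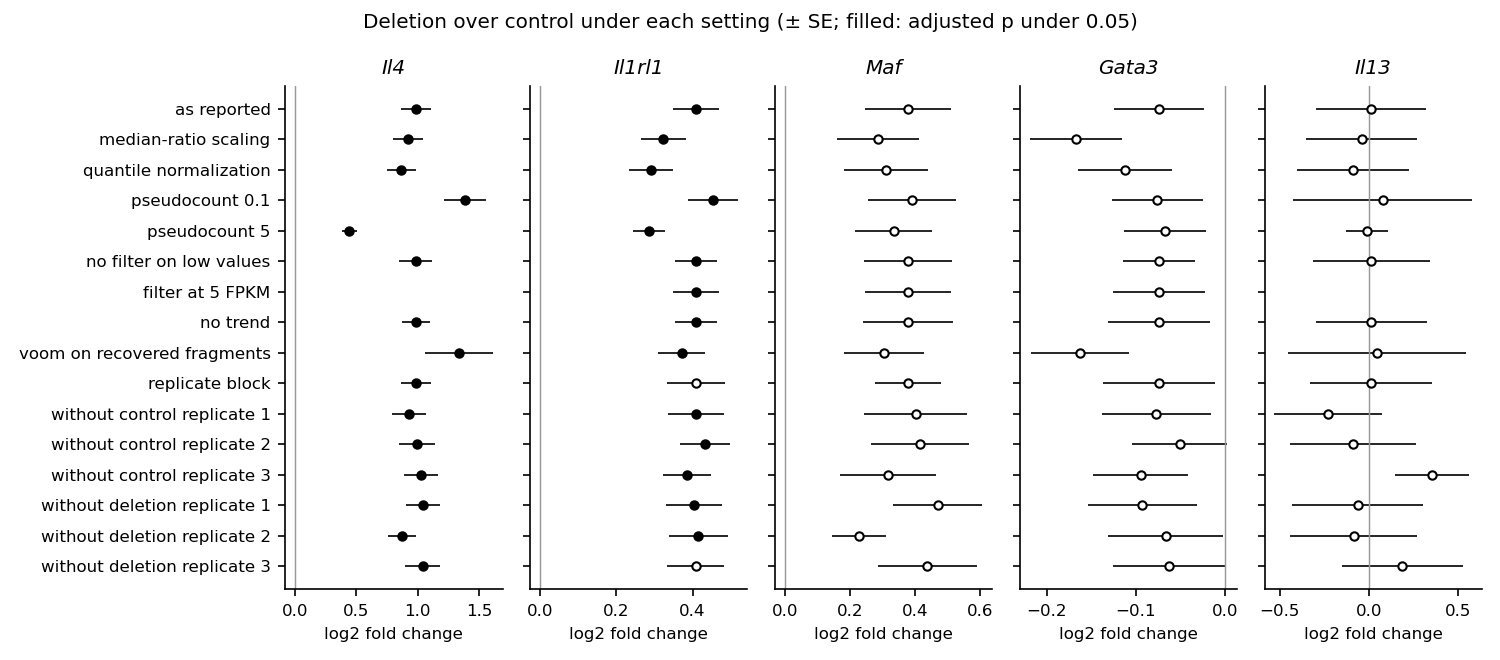
Log2 fold change (horizontal axes, deletion over control, ± SE) of the 5 tested genes as reported and under 15 alternatives (rows). Filled points have an adjusted p under 0.05. Il4 is filled wherever it was tested, and Il1rl1 is open with the replicate block and without deletion replicate 3.

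The tested genes around Il4 did not pass the test. Kif3a, which starts at -51.3 kb from the start of Il4 and encodes a kinesin of cilia, was at 2.41 ± 0.34 and 1.86 ± 0.27 FPKM (adjusted p = 0.188). Rad50, whose introns hold the control region of the Th2 cytokine genes, was at 11.7 ± 1.5 and 11.99 ± 0.50 FPKM (adjusted p = 0.782). Irf1, an interferon response factor, was at 82.0 ± 8.7 and 91.1 ± 9.3 FPKM (adjusted p = 0.332). Of 15 tested genes other than Il4 that start within 1 Mb of it, 0 rose and 0 fell by limma, 1 had an unadjusted p under 0.05, and 0 rose and 1 fell with voom. Of all tested genes 8.95% rose and 3.08% fell by limma. The median log2 fold change of the 15 was 0.03. The list of locus neighbours behaved alike, with 0 of 11 passing limma's test, 1 at an unadjusted p under 0.05 and 1 that fell with voom. Ccni on that list lies on chromosome 5 and was listed in error. The 2 members with the smallest p were Uqcrq, a subunit of respiratory complex III, at 54.6 ± 4.5 and 44.9 ± 3.8 FPKM (adjusted p = 0.0729), and Ccni itself at 105 ± 6.9 and 94.6 ± 3.2 FPKM (adjusted p = 0.160).

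At the ST2 locus Il18r1 and Il18rap rose, while Il1rl2, Il1r2 and Il1r1 did not pass the test. Il18r1, the receptor chain that binds IL-18, lies on the same strand only 136 bases beyond the end of Il1rl1. It was at 22.4, 19.9 and 19.8 FPKM in control and 36.2, 36.4 and 38.9 FPKM in deletion libraries (log2 fold change 0.82, SE 0.07, adjusted p = 0.00153). With such a short gap, fragments that run from one gene into the other could not be told apart in a value per gene. Il18rap, the accessory chain next to it, rose from 4.45 ± 0.96 to 7.54 ± 1.1 FPKM (adjusted p = 0.0411). Il1rl2, a receptor for IL-36 that starts at -105 kb from the start of Il1rl1, went from 1.02 ± 0.20 to 1.74 ± 0.16 FPKM without overlap but did not pass (adjusted p = 0.0501). The decoy receptor gene Il1r2 was lower in all 3 deletion libraries, at 20.5 ± 2.8 and 14.8 ± 2.9 FPKM (adjusted p = 0.0924), and Il1r1 was at 1.44 ± 0.46 and 1.59 ± 1.1 FPKM (adjusted p = 0.988).

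Of 10 tested genes other than Il1rl1 that start within 1 Mb of it, 4 rose and 0 fell (4 and 1 with voom), where 8.95% of all tested genes rose, with a median log2 fold change of 0.26 against 0.08 for all tested genes. Beside Il18r1 and Il18rap these were Rnf149, a ubiquitin ligase (15.7 ± 0.56 to 23.0 ± 2.1 FPKM, adjusted p = 0.0102), and Gm15832, an RNA of no stated function. The list of ST2 locus neighbours had a median log2 fold change of 0.07, or -0.008 with median-ratio scaling. In that list 3 of 9 rose and 0 fell, and from 1 to 3 rose with each library left out. Il18r1 kept its call each time, Rnf149 lost it without deletion library 3, and Il18rap kept it only when control library 2 was the one omitted, and lost it with either scaling.

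**Figure D3:**
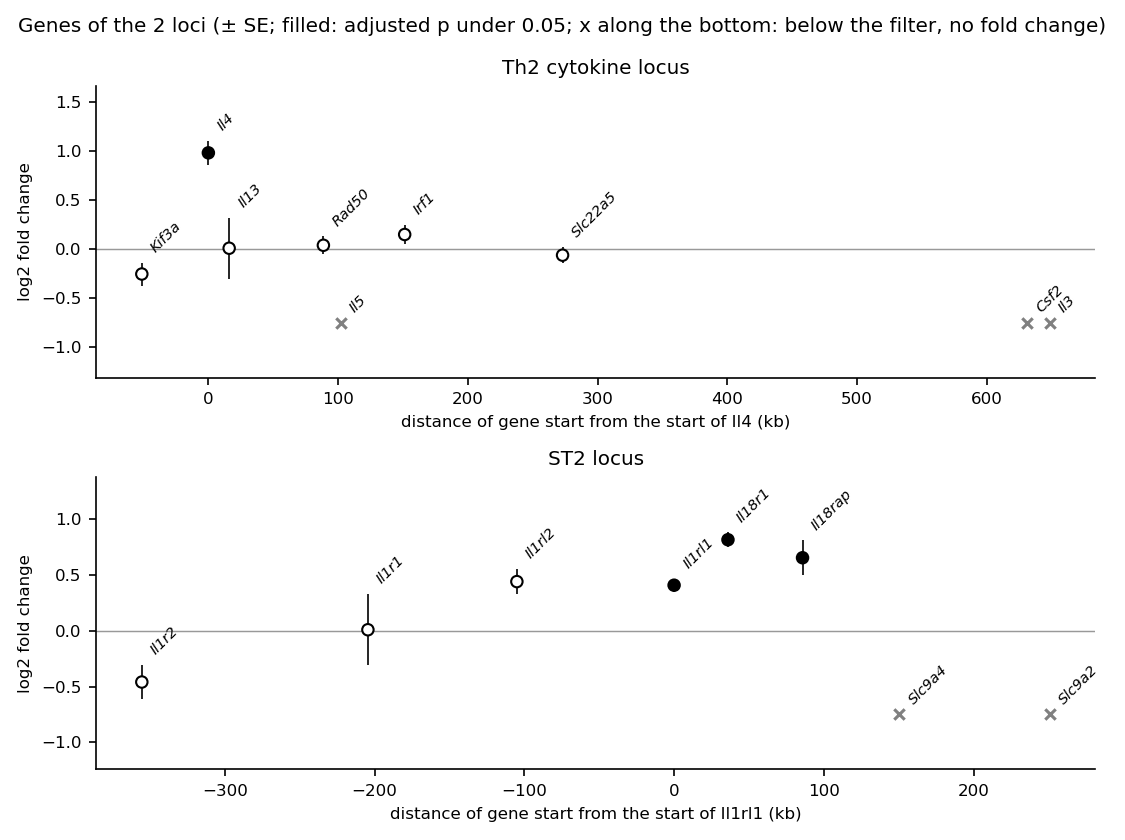
Log2 fold change (vertical axes, ± SE) of genes at the Th2 cytokine locus and the ST2 locus against the distance in kb of each gene's start from the start of Il4 or Il1rl1. Filled points have an adjusted p under 0.05, open points do not, and crosses mark genes below the filter. Il4 is the only filled point of the upper panel, while Il1rl1, Il18r1 and Il18rap are filled neighbours in the lower one.

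Among receptors and signalling genes of IL-4, IL-13 and IL-5, 2 of 17 tested genes rose and 1 fell, with a median log2 fold change of 0.06. Of all tested genes 8.95% rose and 3.08% fell, with a median of 0.08. Jak3, the kinase on the common gamma chain, rose from 81.4 ± 5.5 to 121 ± 16 FPKM (adjusted p = 0.0202), and Irs2, an adaptor of the IL-4 receptor, from 2.66 ± 0.32 to 4.08 ± 0.51 FPKM (adjusted p = 0.0386). Il4ra, the receptor chain that binds IL-4, fell, with means of 53.4 ± 2.3 and 44.9 ± 2.5 FPKM (adjusted p = 0.0482). Stat6 was at 71.8 ± 4.6 and 78.8 ± 3.5 FPKM (adjusted p = 0.194) and Il2rg, the common gamma chain, at 119 ± 10.1 and 107 ± 1.6 FPKM (adjusted p = 0.179), both named for their role after their values were seen. The call of Il4ra was lost whichever library was left out. That of Jak3 was lost without control library 1 or 3 or deletion library 2 or 3, and that of Irs2 was kept only when control library 2 was the one omitted.

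Among the genes through which ST2 signals, 2 of 14 rose and 1 fell, against 8.95% and 3.08% of all tested genes. Their median log2 fold change was 0.10. Sigirr, an inhibitory receptor of this family, rose from 56.3 ± 2.8 to 68.0 ± 3.4 FPKM (adjusted p = 0.0382), and Tab1, an activator of the kinase TAK1, from 8.35 ± 0.39 to 10.3 ± 0.49 FPKM (adjusted p = 0.0415). Traf6, the ubiquitin ligase below MyD88, fell from 18.7 ± 1.1 to 15.4 ± 0.35 FPKM (adjusted p = 0.0389). Il1rap, the co-receptor of ST2, was at 3.77 ± 0.30 and 3.94 ± 0.18 FPKM (adjusted p = 0.675), and Il33 itself at no more than 0.03 FPKM in either mean. With median-ratio scaling 0 rose and 1 fell. Sigirr and Tab1 kept their calls only when control library 2 was the one omitted, and Traf6 only when it was control library 3.

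Activators of the Th2 programme had 2 of 23 that rose and 0 that fell, against 8.95% and 3.08% of all tested genes. The share that rose was thus near that of all tested genes, and the list median log2 fold change was 0.07. Gfi1, a repressor that favours the growth of Th2 cells and works through the CoREST complex, was at 12.1, 12.4 and 11.8 FPKM in control and 34.97, 37.2 and 30.3 FPKM in deletion libraries (log2 fold change 1.42, adjusted p = 0.000388). Cebpb, a leucine zipper factor that can activate Il4, was at 6.55 ± 1.5 and 16.6 ± 1.8 FPKM, a log2 fold change of 1.23 (adjusted p = 0.00607). Both kept their calls with any 1 library left out. Irf4 and Batf, partner factors of Th2 cytokine genes, were at 27.96 and 26.2 FPKM and at 60.6 and 64.2 FPKM (adjusted p = 0.537 and 0.574), and were named for their role after their values were seen. Junb of this list, named likewise, was at 768 ± 182 and 1129 ± 73 FPKM without overlap and did not pass (limma adjusted p = 0.0529). Without control library 2 the count of the list was 4 that rose and 1 that fell.

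Repressors of the programme rose in 5 of 28 cases and fell in 0, against 8.95% and 3.08% of all tested genes. The list median log2 fold change was 0.12. Sox4, which restrains GATA-3 in mouse T cells, rose with means of 2.45 ± 0.16 and 5.002 ± 0.48 FPKM (adjusted p = 0.00429) and kept its call with any 1 library left out. Mbd2, a reader of methylated DNA that holds Il4 silent in mouse helper cells, rose from 112 ± 3.1 to 140 ± 5.4 FPKM (adjusted p = 0.0142). Cbl, a ubiquitin ligase, rose from 20.9 ± 2.5 to 30.5 ± 2.3 FPKM (adjusted p = 0.0214) and Zbtb32, also called repressor of GATA, from 8.19 ± 1.2 to 11.1 ± 0.45 FPKM (adjusted p = 0.0478). The fifth, Tbx21, which encodes the Th1 factor T-bet, went from 4.17 to 6.44 FPKM (adjusted p = 0.0479). The count was 1 without control library 1, deletion library 2 or deletion library 3, and 3 without deletion library 1 or with either scaling.

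Other cytokine genes of Th2 cells had 8 of 16 members tested, of which 1 rose, where 8.95% of all tested genes did. This was Tnfsf11, which encodes RANK ligand (15.4 ± 0.37 to 19.6 ± 0.84 FPKM, adjusted p = 0.0170), and it kept its call only without control library 2 among the 6 omissions. Il10 was at 10.1 ± 3.4 and 10.9 ± 3.1 FPKM (adjusted p = 0.793) and Areg, the tissue repair factor that ST2+ Treg cells make, at 2.16 ± 0.76 and 2.15 ± 0.67 FPKM (adjusted p = 0.988), both named for their role after their values were seen. Where 8.95% of all tested genes rose and 3.08% fell, surface genes of Th2 cells had 3 of 17 that rose and 0 that fell. They were Cd200r1, an inhibitory receptor (11.3 ± 1.3 to 17.1 ± 2.0 FPKM, adjusted p = 0.0224), Klrg1, a receptor of effector cells (17.9 ± 1.1 to 22.5 ± 0.88 FPKM, adjusted p = 0.0264), and Crlf2, the receptor of the alarmin TSLP (52.0 ± 5.1 to 69.2 ± 7.6 FPKM, adjusted p = 0.0479). Median-ratio scaling left 1 of the list that rose and 2 that fell. Without control library 1, deletion library 2 or deletion library 3 the count that rose was 0, and it was 1 without control library 3 and 2 without deletion library 1.

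Genes of ST2+ Treg cells of tissues, a list that also holds Gata3, Maf and Il1rl1, had 8 of 31 that rose and 0 that fell. Of all tested genes 8.95% rose and 3.08% fell. The list median log2 fold change was 0.14. Gpr55, a lipid receptor, rose from 4.79 ± 0.30 to 8.25 ± 0.42 FPKM (adjusted p = 0.00372) and Il9r, the receptor of IL-9, from 6.10 ± 0.71 to 10.9 ± 0.79 FPKM (adjusted p = 0.00618), both kept with any 1 library left out. The CD103 gene Itgae, an integrin of cells that stay in epithelia, also rose, with means of 40.2 ± 2.4 and 61.7 ± 9.4 FPKM (adjusted p = 0.0198). Its call was lost without control library 1 or 3 or deletion library 3. Il1rl1 stood between Il9r and Itgae by p. With median-ratio scaling 4 rose and 3 fell, and with each library left out the count that rose was 3, 8 and 4 for the control omissions and 5, 4 and 3 for the deletion omissions.

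With median-ratio scaling the median of all tested genes was -0.01, and the medians of the receptor, activator, other cytokine and surface lists were -0.04, -0.02, -0.03 and -0.03.

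Where 8.95% of all tested genes rose and 3.08% fell, Th1 genes, shown for comparison, had a median log2 fold change of 0.39. Of 14 tested Th1 genes, 6 rose and 0 fell. They included Il18r1, Ifng (5.92 ± 0.50 to 10.7 ± 1.6 FPKM, adjusted p = 0.0114), Cxcr3 and Tnf, and the same omissions left 1, 5 and 5 and 2, 2 and 1 that rose. The Th1 share was not tested against the Th2 share.

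**Figure D4:**
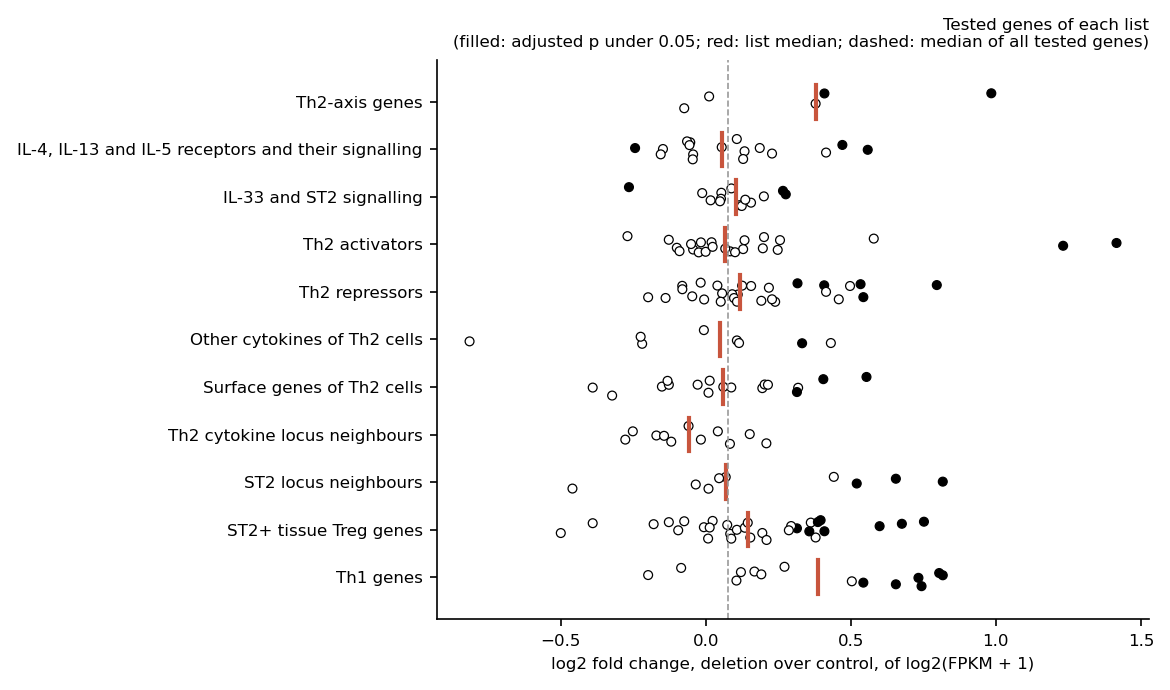
Log2 fold change (horizontal axis, deletion over control) of each tested gene of the Th2-axis genes and 10 related lists. Filled points have an adjusted p under 0.05, red bars are list medians, and the dashed line is the median of all tested genes, 0.08. Gfi1 and Cebpb are the filled points at the right among the activators.

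The tested genes with profiles most like those of each member over the 6 libraries were found by the root mean square difference of centred log2(FPKM + 1) values. For Il4 they were 1700097N02Rik, a non-coding RNA (difference 0.05, against a spread of 0.51 in Il4 itself), Rpl38-ps2, listed as a ribosomal pseudogene (0.09), and Wdr66 (0.09). For Il1rl1, with a spread of 0.21, they were Mlycd, Rif1 and Midn, at 0.02 each. For Maf, with a spread of 0.25, they were Grhl1, Plxnd1 and Rnf208, at 0.05, 0.05 and 0.07. For Il13, with a spread of 0.39, they were Vpreb3, Gm13461 and Hist1h2ag, at 0.15 to 0.18, and for Gata3, with a spread of 0.05, Smad1, Prpsap1 and Commd8, at 0.01 each. These profiles share the same 6 libraries and were not tested.

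Other cells that make IL-4 or carry ST2 could be present among sorted cells, so their markers were measured in each library. Mast cell and basophil markers summed to 4.83 to 7.88 FPKM in control and 5.95 to 10.3 FPKM in deletion libraries. Of these 17 genes 13 were under 1 FPKM in every library, Tpsab1 and Mrgprb2 were at 0 in all, and Fcer1a, the IgE receptor chain, reached at most 0.196 FPKM. Cpa3 and Kit were the highest, at 1.49 ± 0.52 and 2.33 ± 0.33 FPKM and at 1.68 ± 0.28 and 1.91 ± 0.32 FPKM (adjusted p = 0.126 and 0.554). Cpa3, a protease of mast cells and basophils, was higher in all 3 deletion libraries, as Il4 was, and its part in the Il4 change was not tested. Prss34, also tested, was lower in the deletion mean, at 0.96 ± 0.61 and 0.54 ± 0.66 FPKM, with overlap (limma adjusted p = 0.482). In limma and in voom 0 of 3 tested markers of this list passed, with 1 at an unadjusted p under 0.05. Limma passed 12% of all tested genes, so 0 of so few markers says little. Deletion library 2 had both the highest sum and the highest Il4. Without it the log2 fold change of Il4 was 0.87 (adjusted p = 0.0201), and Cpa3 was at 2.71 and 2.14 FPKM in the remaining deletion libraries, against at most 2.01 FPKM in control libraries.

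Eosinophil markers varied more, from 3.95 to 30.5 FPKM in control and from 7.46 to 55.6 FPKM in deletion libraries, led by Prg2 at 9.82 ± 7.8 and 15.8 ± 14 FPKM and Ear2 at 2.14 ± 1.5 and 2.80 ± 3.3 FPKM. Macrophage and dendritic cell markers summed to 21.7 to 67.7 FPKM in control and 23.3 to 108 FPKM in deletion libraries, led by Lyz2 at 17.6 ± 16 and 27.2 ± 32 FPKM and Ly6c2, which T cells also express, at 4.87 and 10.2 FPKM (adjusted p = 0.0726). In limma and in voom 0 of 5 tested eosinophil and 0 of 10 tested macrophage and dendritic cell markers passed, with 0 and 1 at an unadjusted p under 0.05. With 12% of all tested genes past limma's test, these counts too say little. In each group the library with the highest eosinophil and macrophage sums, control library 3 and deletion library 2, also had the highest Il13 level, in deletion library 2 by less than counting error. Both sums were lowest in library 1 of each group, where Il13 was lowest in control but at 1.63 FPKM in deletion libraries, whose lowest Il13 was in library 3. The part of these cells in the Il13 spread was not tested.

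Group 2 innate lymphoid cell (ILC2) markers summed to 168 to 182 FPKM in control and 193 to 206 FPKM in deletion libraries, without overlap. Some of them, Il9r and Klrg1 included, are also on the list of ST2+ tissue Treg genes. Of 11 ILC2 markers tested, Il9r and Klrg1 rose and 0 fell, against 8.95% and 3.08% of all tested genes. With median-ratio scaling and with voom 1 rose and 1 fell, and 1 to 2 rose with each library left out. Klrg1 lost its call with both scalings and voom and without control library 1 or any deletion library. The most abundant, Id2 and Il7r, were at 63.3 and 74.7 FPKM and at 48.8 and 43.9 FPKM (limma adjusted p = 0.197 and 0.127). Id2 is also on the list of Th2 repressors and Il7r on that of Th2 surface genes, so the sum is not specific to ILC2. The part of ILC2 in the Il4 and Il1rl1 changes was not tested. Follicular helper markers, whose cells also make IL-4, summed to 195 to 216 and 197 to 245 FPKM. Of 10 tested, 3 rose, Tox (21.1 ± 0.52 to 27.1 ± 0.52 FPKM), Sh2d1a and Tox2, and 0 fell. Of all tested genes 8.95% rose and 3.08% fell. The count that rose was 1 with median-ratio scaling, quantile normalization or voom, and 0 to 2 with each library left out. The most abundant, Icos and Pdcd1, were at 86.8 and 79.9 FPKM and at 37.0 and 37.7 FPKM. NKT and unconventional T cell markers summed to 74.5 to 97.1 and 73.8 to 96.6 FPKM. In limma and in voom 0 of 10 passed, where limma passed 12% of all tested genes, and 1 was at an unadjusted p under 0.05.

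B cell markers summed to 23.1 to 47.9 FPKM in control and 47.7 to 53.8 FPKM in deletion libraries. Cd22 rose from 2.04 ± 0.54 to 5.17 ± 0.23 FPKM (adjusted p = 0.00793), while Cd79b and Cd79a, the most abundant, were at 13.9 and 15.8 FPKM and at 10.7 and 15.4 FPKM (adjusted p = 0.344 and 0.233). This sum was lowest in control library 1, without which the log2 fold change of Il4 was 0.93 (adjusted p = 0.0374) and that of Il1rl1 0.41 (adjusted p = 0.0491). The part of B cells in either change was not tested.

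**Figure D5:**
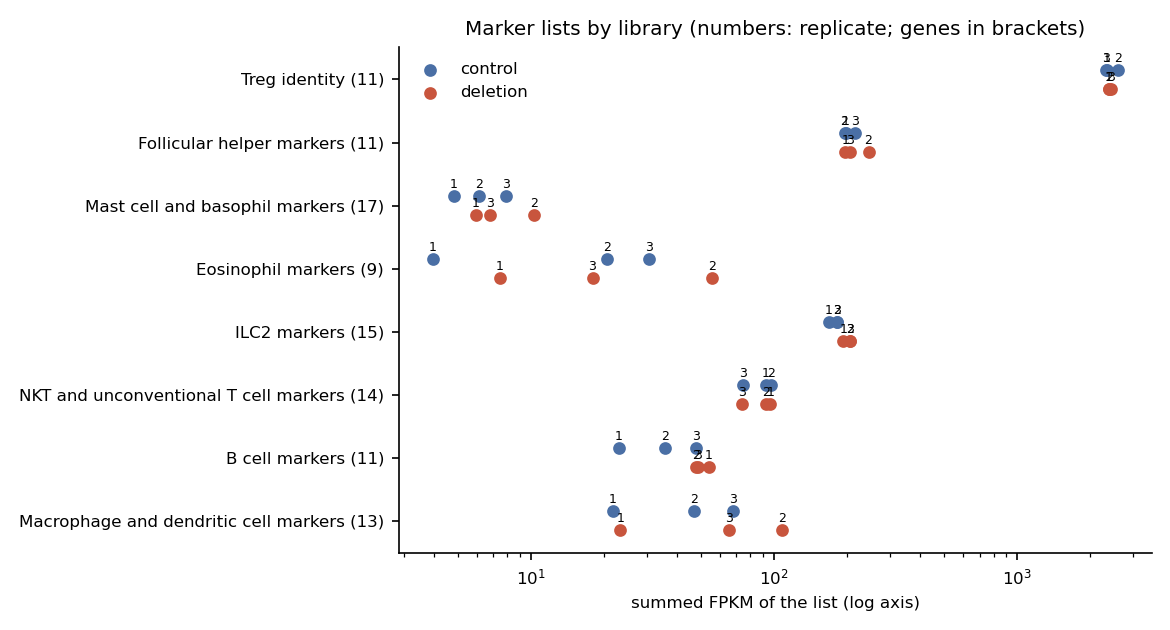
Summed FPKM (horizontal log axis) of 8 marker lists in each control (blue) and deletion (red) library, numbered by replicate, with the number of genes in brackets. Eosinophil and macrophage sums spread widely within both groups and are highest in deletion library 2, at 55.6 and 108 FPKM, while mast cell and basophil markers stay at or under 10.3 FPKM.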

How the data were processed

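Messenger RNA of sorted Treg cells was measured in 6 libraries, 3 control and 3 deletion. The authors deposited FPKM values for 35275 genes. STAR and mm10 are named in the submitters' processing notes, with counting tool, annotation and filters not given in the sources used here. Symbols, positions and lengths came from GENCODE M21 (GRCm38), which matched 34490 identifiers, and 58 tested genes had no symbol. Because a value times gene length steps in whole fragments, totals of 18538581 to 22349455 fragments were recovered. Values were whole within 0.01 fragments with the longest transcript for 70.0% of 21898 genes above 0, all 6 members among them, and with a solved length for the rest.

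FPKM values are not counts, so limma (version 3.58.1, R 4.3.3) with an expression trend was run on log2(FPKM + 1) for the 11575 genes that reached 1 FPKM in at least 3 libraries. Tests were two-sided and Benjamini-Hochberg adjusted over these genes, with a threshold of 0.05. The +1 understates fold changes of low genes. The test was checked on simulated data. Alternatives were other scalings, pseudocounts of 0.1 and 5, other filters, no trend, voom on recovered fragments, a replicate block and leaving out each library. Single values were compared by exact permutation tests in Python 3.11.15 with scipy 1.17.1.

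The members, lists and alternatives were chosen with earlier results of these data known. The rule for named genes took all 6 members, Rcor1, genes that overlap a member and the 3 nearest profiles of each tested member. Of every other list it took the called genes with the smallest p, 4 at most, or 2 uncalled ones where none was called, and of marker lists also the 2 most abundant. The 1 Mb windows and the pairs of members were added after the values were seen. The library kit is not stated to keep strand, so overlapping antisense RNA cannot be told apart.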

Additional observations from a re-analysis of the deposited data

How the results depend on the processing

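Il4 kept its direction and call in all 14 alternatives that tested it, with log2 fold changes of 0.44 to 1.39 and adjusted p-values of 0.00575 to 0.0374, and a filter at 5 FPKM left it out. Voom on recovered fragments gave it 1.34 (adjusted p = 0.0192). Il1rl1 kept its direction in all 15, at 0.29 to 0.45. Its call was lost with the replicate block (0.41, adjusted p = 0.0593) and without deletion library 3, with fold changes of 0.39 to 0.43 when a library was left out. Maf and Gata3 kept their directions and passed in 0 of 15 alternatives, with adjusted p-values of 0.0943 to 0.237 and 0.0817 to 0.573. Il13 passed in 0 of 14, and its fold change of 0.01 turned to -0.042 with median-ratio scaling, -0.089 with quantile normalization and -0.011 with a pseudocount of 5, and ranged from -0.23 to 0.35 with a library left out. Il5, testable only without a filter, had a fold change of -0.02 (adjusted p = 0.678).

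The count of members that rose was 1 in place of 2 with a filter at 5 FPKM, with the replicate block, and 1 to 2 with a library left out. All called genes numbered 1392, against 868 with quantile normalization, 844 without a filter, 404 with the replicate block and 279 to 1862 with a library left out. The genes of the related lists that passed numbered 18 without a filter and 11 with the block, and 8 to 33 with a library left out, against 34. Of all calls 1036 of 1392 rose, but 528 of 1216 with median-ratio scaling, 473 of 868 with quantile normalization and 703 of 1431 with voom. The cause of these shifts was not tested. No pairing of same-numbered libraries is given in the labels. Their deviations from the group means correlated at 0.211, -0.135 and -0.162 for replicates 1, 2 and 3. Control libraries 2 and 3 correlated best with deletion libraries 3 and 2, at 0.185 and 0.336. Deviations from a mean of so few libraries depend on each other, so these values cannot decide whether libraries were paired. Depth limits Il5 and leaves Il4 and Il13 with wide counting intervals.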
